A study of Mus musculus with 3 samples.

Results

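The 10 genes described here carry the transforming growth factor beta (TGF-beta) signal in the epidermis: the ligand gene Tgfb1, the integrin genes Itgav, Itgb6 and Itgb8, the receptor genes Tgfbr1 and Tgfbr2, and the intracellular genes Smad3, Smad7, Ski and Skil. They were taken by gene symbol from the 34289 genes of the deposited count matrices, and all 10 were found in each of the 3 matrices. Their levels were compared between epidermal cell classes and between treatments, to ask which cell holds the ligand, which the activating integrin and which the receptor.

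TGF-beta1 is secreted in a latent form, held by its own propeptide. In the epidermis the integrins alpha-v-beta-6 and alpha-v-beta-8, built from the Itgav chain and either Itgb6 or Itgb8, bind that propeptide and release the active ligand. Active ligand joins the TGFBR2 and TGFBR1 receptor kinases, which phosphorylate SMAD2 and SMAD3, while SMAD7, SKI and SKIL hold the pathway back. Langerhans cells, the dendritic cells of the epidermis, depend on TGF-beta signals for their development and for staying in the tissue.

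The series holds 3 single-cell RNA libraries of Langerhans cells from the ear epidermis of male mice of the Cd1 strain, made with the 10x Genomics 3' kit. The ears of all mice, controls included, were treated with the depilatory Nair. One group received nothing else (untreated), one was treated with croton oil mixed with acetone and olive oil (croton oil), and one received repeated punches with a microneedle array (microneedle). Cells were taken 48 hours after the first treatment. Epidermis was separated with trypsin, dead cells were removed, and Langerhans cells were enriched with magnetic beads, so every other cell type here is what remained after that enrichment. The age of the mice and how many were pooled in each library are not given in the sources used here.

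Each group was 1 library, so no difference between treatments has a replicate check and no test was made. Intervals are exact 95% Poisson intervals on summed unique molecular identifiers (UMIs, the count of captured RNA molecules), and exact binomial intervals on shares of cells. They cover counting error only. Levels are UMIs of a gene per 1000000 UMIs summed over the cells of a class (CPM), and log2 differences were taken of CPM + 5. A gene was counted as past the fold when it differed at least 2-fold and reached 20 CPM on either side.

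The untreated, croton oil and microneedle libraries held 9876, 8241 and 6945 cell barcodes, with medians of 11623, 12509 and 16427 UMIs. Pairs of libraries shared 13 to 32 barcodes. Langerhans cells were cells with at least 2% of their UMIs from the MHC class II genes Cd74, H2-Aa, H2-Ab1 and H2-Eb1 and at least 2 UMIs of Epcam (9380, 6344 and 5601 cells). Keratinocytes had at least 0.5% of UMIs from Krt14, Krt5, Krt1 and Krt10 (159, 182 and 78 cells). Macrophages were enough for a value only in the microneedle library (295 cells, against 1 and 7), neutrophils in the croton oil and microneedle libraries (186 and 386), and T cells with croton oil (133). The classes were set beside marker lists. The keratinocyte list, with no gene of the gates, was at 12897, 19830 and 14839 CPM in keratinocytes against 136, 148 and 101 in Langerhans cells. Of the 15 macrophage list genes 7 formed the gate. Of the others, Cd14 was at 560 CPM in macrophages against 71.3 in microneedle Langerhans cells and Cd68 at 579 against 33.2, while C1qa was lower in macrophages, at 89.9 against 484. Cd207, the langerin gene, taken here as a Langerhans cell marker, was at 572, 322 and 462 CPM in Langerhans cells (untreated, croton oil, microneedle) against 102, 24.9 and 106 in keratinocytes. No doublet caller was run, and the 64, 98 and 55 cells meeting more than one gate were left out. A further 222, 1208 and 426 retained cells met no gate and are in none of these classes. The T cell gate also asked for under 2% MHC class II UMIs, so 2, 101 and 17 Langerhans cells with 3 or more T cell gene UMIs remained in their class. Keratinocytes carried Langerhans cell RNA: Cd207, Ltc4s and Cd74, the markers used for that comparison, stood in them at a summed 18.0%, 8.77% and 15.8% of their Langerhans cell level (untreated, croton oil, microneedle). Keratinocyte markers in Langerhans cells were at 1.05%, 0.747% and 0.679% of their keratinocyte level.

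The ligand gene Tgfb1 was read in every class, at a lower level in keratinocytes than in the immune cells. In Langerhans cells Tgfb1 was at 144 CPM (142 to 146) untreated, 168 (165 to 171) with croton oil and 164 (161 to 166) with microneedles. In keratinocytes it was at 48.1 CPM (41.9 to 55.0), 47.5 (43.0 to 52.4) and 51.9 (43.5 to 61.4). Keratinocytes were thus below Langerhans cells in each library, by log2 differences of -1.49, -1.72 and -1.57, and their own level changed little with either treatment. The macrophages of the microneedle library held 271 CPM (251 to 294), the T cells of the croton oil library 236 CPM, and the neutrophils 162 and 173 CPM with croton oil and microneedles. The order at microneedle was therefore macrophages, then neutrophils and Langerhans cells, whose intervals overlapped, then keratinocytes. At equal depth, with each cell thinned to 3000 UMIs and shallower cells left out (101, 32 and 58 Langerhans cells), 33.0%, 38.1% and 34.1% of Langerhans cells held a Tgfb1 UMI.

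Part of the keratinocyte Tgfb1 signal lay in cells that also held MHC class II RNA. If Langerhans cell RNA had entered the keratinocytes in the proportion of the Langerhans cell markers, it would give 26.0 CPM of Tgfb1 untreated, 14.7 with croton oil and 25.9 with microneedles. In keratinocytes with under 0.5% MHC class II UMIs, Langerhans cell markers were at 0.919%, 1.08% and 0.421% of their Langerhans cell level. Cd74, one of the genes of that cut, made up 19351 of the 20545 CPM of these markers in untreated Langerhans cells. Their low share thus follows from the cut and does not show that other Langerhans cell RNA was absent. In these keratinocytes Tgfb1 was at 6.24 CPM (3.11 to 11.2), 39.5 (34.2 to 45.5) and 29.2 (19.9 to 41.2). That subset, chosen after values had been seen, held 74, 126 and 46 cells. Within it the untreated value was the lowest and its interval met neither of the other 2, but 59 of the 74 untreated cells were suprabasal and 114 of the 126 croton oil cells basal, by the keratins given with Itgb6 below. Over all basal keratinocytes the order was the other way, at 76.1 CPM (65.5 to 88.0) untreated, 48.8 (44.0 to 53.9) with croton oil and 59.1 (48.8 to 70.8) with microneedles, where the croton oil interval was apart from the untreated one and the microneedle interval met it. The untreated basal cells held more MHC class II RNA, with a median of 1.38% of UMIs against 0.0300% and 0.0659%. In basal keratinocytes under 0.5% MHC class II, 15, 114 and 33 cells, Tgfb1 was at 20.4 CPM (7.48 to 44.3), 41.7 (36.0 to 48.1) and 36.0 (24.6 to 50.8), and the untreated interval met both others. No direction of Tgfb1 between libraries thus held in all of these subsets.

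**Figure D1:**
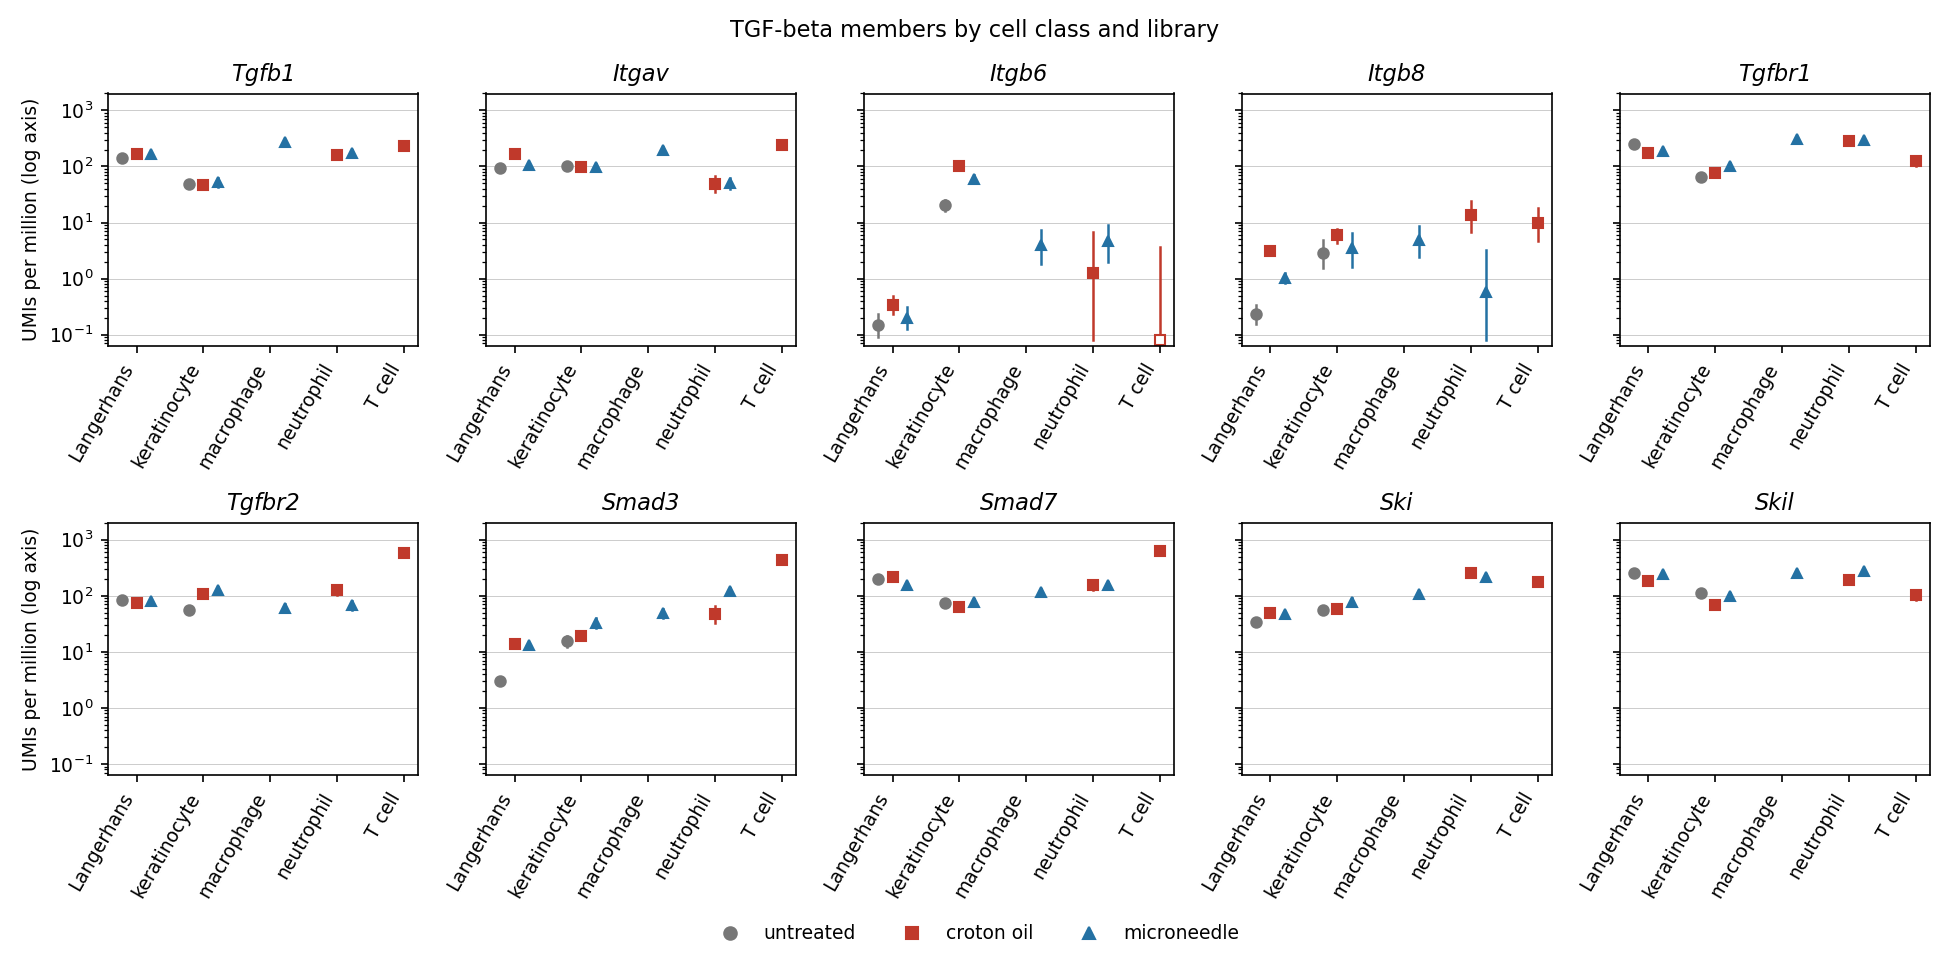
Level of each of the 10 genes (vertical log axis, CPM) in 5 cell classes of the untreated (grey circle), croton oil (red square) and microneedle (blue triangle) libraries, with exact 95% Poisson intervals as bars; classes under 50 cells are not drawn, and an open marker at the axis floor is a value of 0. Itgb6 sits between 20.3 and 103 CPM in keratinocytes and under 1 in Langerhans cells, while Tgfb1 is lower in keratinocytes than in every other class drawn.

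Itgav, the alpha-v chain shared by both activating integrins, was present in every class. In Langerhans cells Itgav was at 93.7 CPM (92.0 to 95.5) untreated, 164 (161 to 167) with croton oil and 104 (102 to 106) with microneedles. In keratinocytes the 3 libraries gave 101, 96.2 and 96.5 CPM, with intervals that overlapped. In Langerhans cells the log2 difference was 0.78 for croton oil and 0.14 for microneedles, under the 2-fold limit in both. In basal keratinocytes, defined with Itgb6 below, Itgav was at 125 CPM untreated, 94.9 with croton oil and 98.8 with microneedles, with the croton oil interval apart from the untreated one. Macrophages held 199 CPM, T cells 241 CPM and neutrophils 49.4 and 49.8 CPM.

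Itgb6, the chain that pairs with alpha-v on epithelia, was a keratinocyte gene in all 3 libraries. In keratinocytes Itgb6 was at 20.3 CPM (16.3 to 24.9; 91 UMIs) untreated, 103 (96.6 to 110; 893 UMIs) with croton oil and 59.6 (50.6 to 69.7; 155 UMIs) with microneedles. The 3 intervals did not meet, and the log2 differences from untreated were 2.10 and 1.35. Langerhans cells held 18, 31 and 21 Itgb6 UMIs in all, or 0.151, 0.345 and 0.202 CPM. Those Langerhans cell values lay below the 0.214, 0.772 and 0.404 CPM that keratinocyte RNA would give at the level of the keratinocyte markers, so Itgb6 in Langerhans cells was at background. No Itgb6 UMI was read in the croton oil T cells, which allows up to 3.60 CPM, and macrophages held 3.95 CPM from 9 UMIs.

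By cells, 23.3% of untreated, 65.4% of croton oil and 43.6% of microneedle keratinocytes held an Itgb6 UMI. Keratinocytes of the croton oil library were deeper, with a median of 48624.5 UMIs against 28585 untreated and 26737.5 with microneedles. Thinned to 3000 UMIs a cell, with 9, 16 and 15 shallower keratinocytes left out, the shares were 4.67% (1.90 to 9.38), 22.9% (16.7 to 30.0) and 9.52% (3.58 to 19.6), where the untreated and microneedle intervals overlapped. Those of Langerhans cells, which stand here as the background, were 0.0323%, 0.143% and 0.0722%. Unthinned, Itgav and Itgb6 were read in the same cell in 36 of 159, 114 of 182 and 33 of 78 keratinocytes.

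The keratinocytes captured differed between the libraries in layer, and Itgb6 differed with layer. Basal keratinocytes, those in which Krt14 and Krt5 together were at or above Krt1 and Krt10, were 84 of 159 untreated, 163 of 182 with croton oil and 57 of 78 with microneedles. In the untreated library Itgb6 was at 34.3 CPM (27.4 to 42.6) in basal and 3.86 (1.67 to 7.61) in suprabasal keratinocytes. Within basal keratinocytes the treated libraries remained higher, at 110 CPM (102 to 117) and 75.3 (63.7 to 88.5). In basal keratinocytes with under 0.5% MHC class II UMIs, however, Itgb6 was at 102 CPM (68.7 to 145) untreated, 129 (119 to 140) with croton oil and 101 (81.4 to 124) with microneedles, from 15, 114 and 33 cells. In that subset the untreated interval met both others. How much of the difference in Itgb6 between libraries came from the mix of layers and from cells that held Langerhans cell RNA was not tested.

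**Figure D2:**
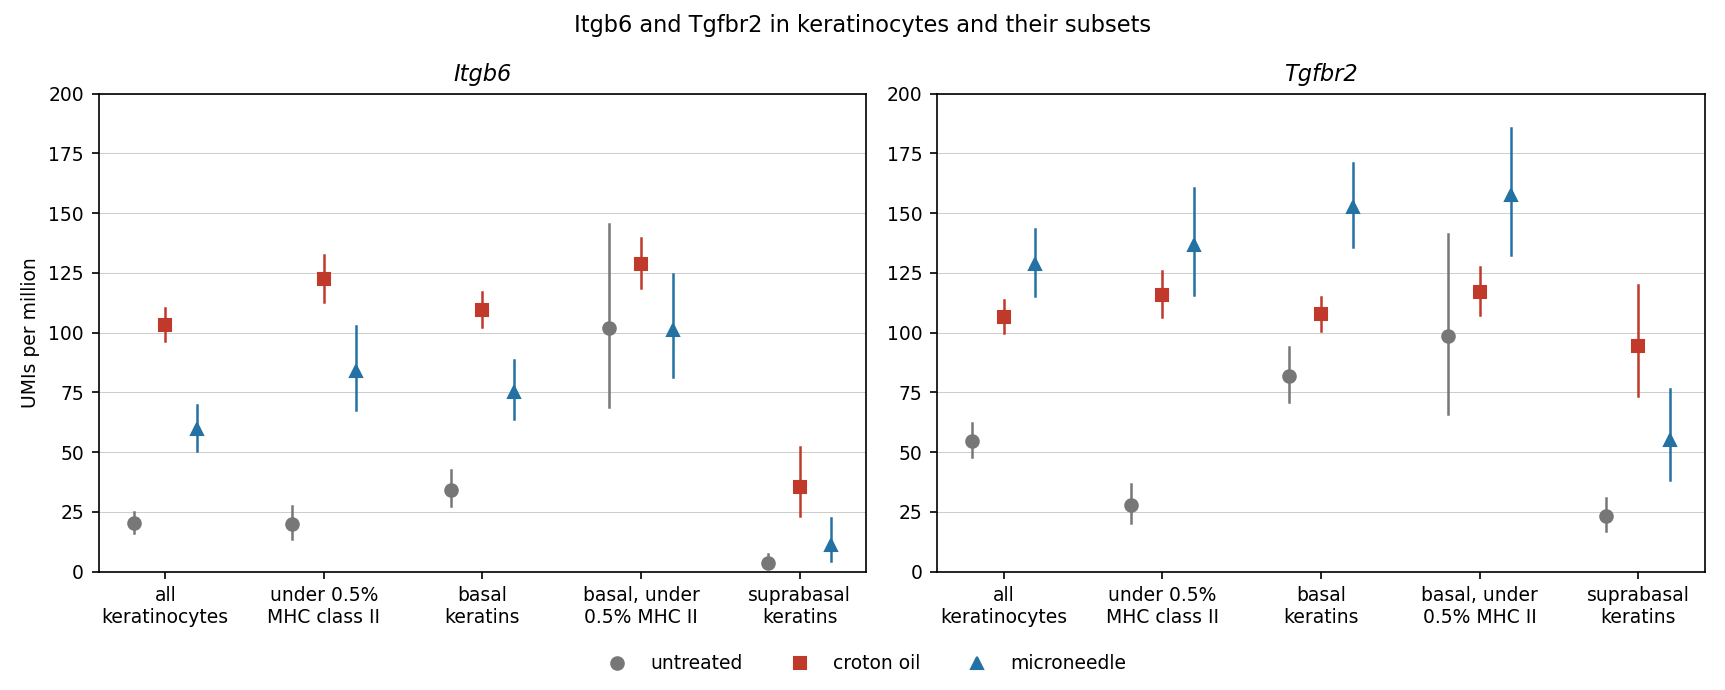
Itgb6 (left) and Tgfbr2 (right) in CPM (linear axis) in all keratinocytes and in 4 subsets of them, for the untreated (grey circle), croton oil (red square) and microneedle (blue triangle) libraries, with exact 95% Poisson intervals. The gap in Itgb6 between libraries is wide over all keratinocytes (20.3, 103 and 59.6) and narrow among basal keratinocytes with under 0.5% MHC class II UMIs (102, 129 and 101).

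Itgb8, the other beta chain, was almost absent from the gated Langerhans cells and keratinocytes. In the treated libraries it lay mainly in a small set of cells with Ccr7 and Fscn1. In Langerhans cells Itgb8 was at 0.234 CPM untreated, 3.13 with croton oil and 1.03 with microneedles, and in keratinocytes at 2.90, 5.90 and 3.46. The Langerhans cell values rested on few cells: 219 of the 281 croton oil UMIs and 75 of the 107 microneedle UMIs were in the 145 and 19 Langerhans cells that held at least 2 UMIs of both Ccr7 and Fscn1. Ccr7 encodes the chemokine receptor that leads dendritic cells to lymph nodes, and Fscn1 the actin-bundling protein of mature dendritic cells.

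In the treated libraries most cells with both genes fell outside the Langerhans gate, and in the untreated library 9 of 14 were inside it. At least 2 UMIs of each were found in 14, 751 and 164 retained cells (untreated, croton oil, microneedle), and 23 croton oil and 2 microneedle cells were set aside for keratinocyte, macrophage, neutrophil or T cell genes. Of the 14, 728 and 162 that remained, 588 with croton oil and 144 with microneedles were outside the Langerhans gate, 516 and 142 of them with under 2% MHC class II UMIs. They made up 0.142%, 8.92% and 2.36% of retained cells. This wider set was drawn up after values had been seen. It rests on 2 markers and is therefore given no cell type name. Its level of Cd207, the langerin gene, was 157 CPM with croton oil and 177 with microneedles against 322 and 463 in the other Langerhans cells. Epcam was at 480 and 550 CPM against 1150 and 1477. The other Langerhans cells were gated on at least 2 Epcam UMIs and the set was not, so the lower Epcam level is set in part by the gate. Flt3 and Batf3, 2 genes picked after their values were seen and not from a fixed list, were higher in the set. Flt3, a cytokine receptor gene of dendritic cells, was at 442 and 524 CPM against 39.1 and 35.4. Batf3, a transcription factor gene of conventional dendritic cells, was at 170 and 99.8 against 22.5 and 5.35. No list of other dendritic cell genes was compared. Whether these cells were Langerhans cells or other dendritic cells was not tested, and each comparison of them with the other Langerhans cells compares sets that also differ in these genes.

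In these Ccr7+ Fscn1+ cells Itgb8 was at 205 CPM (197 to 214) with croton oil and 175 (160 to 190) with microneedles. In the other Langerhans cells of the same libraries it was at 0.716 CPM (0.549 to 0.917) and 0.309 (0.212 to 0.437), giving log2 differences of 5.20 and 5.08. The 14 untreated cells held 94.6 CPM (60.0 to 142), from 23 UMIs in 3 cells, 15 of them in a single cell. Over all retained cells, the 14, 751 and 164 with both genes, those set aside included, held 23 of 65 Itgb8 UMIs untreated, 2590 of 2895 with croton oil (89.5%, 88.3 to 90.6) and 547 of 717 with microneedles (76.3%, 73.0 to 79.4). The 728 and 162 cells of the set itself held 2496 and 546 of these UMIs, so most Itgb8 UMIs of both treated libraries were in them. Retained cells in no class and without both genes held 213 Itgb8 UMIs with croton oil, in 39 cells, and 118 with microneedles, in 12 cells. The richest of these microneedle cells held 73. Inside the Langerhans gate alone, the croton oil cells with both genes held 67.2 CPM of Itgb8 (58.6 to 76.7), a log2 difference of 3.66.

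The Itgb8 UMIs were unevenly spread within the set. With croton oil 243 of 728 cells (33.4%) and with microneedles 60 of 162 (37.0%) held an Itgb8 UMI, and the richest single cells held 58 and 62. Thinned to 3000 UMIs, with 2 shallower cells left out in each library, 21.8% (18.8 to 24.9) and 16.9% (11.4 to 23.6) of the cells held one, against 0.0973% and 0.0543% of the other Langerhans cells. Cells with at least 2 Epcam UMIs held more, 250 and 202 CPM, than cells with fewer, 55.7 and 67.4 CPM. Cells with no Cd207 UMI held 242 and 289 CPM, and cells with one or more 177 and 104 CPM. Itgav and Itgb8 were read in the same cell in 201 of 728 and 38 of 162.

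The keratinocyte value of Itgb8 with croton oil also rested on cells with Ccr7 and Fscn1. Of its 51 UMIs, 42 were in the 8 keratinocytes that held both genes, and without those 8 cells the level was 1.13 CPM (0.515 to 2.14). The T cell and neutrophil values with croton oil, 9.75 and 13.6 CPM, came from 1 cell each. Itgb6 was nearly absent from the 728 and 162 Ccr7+ Fscn1+ cells, at 0.905 and 0.960 CPM. With the cells set aside included, the 751 croton oil cells held 91 of 1120 Itgb6 UMIs (8.13%, 6.59 to 9.88), 44 of them in the 8 keratinocytes with both genes, and the 164 microneedle cells 3 of 255. Keratinocyte markers stood in these cells at 0.725% and 0.390% of their keratinocyte level.

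**Figure D3:**
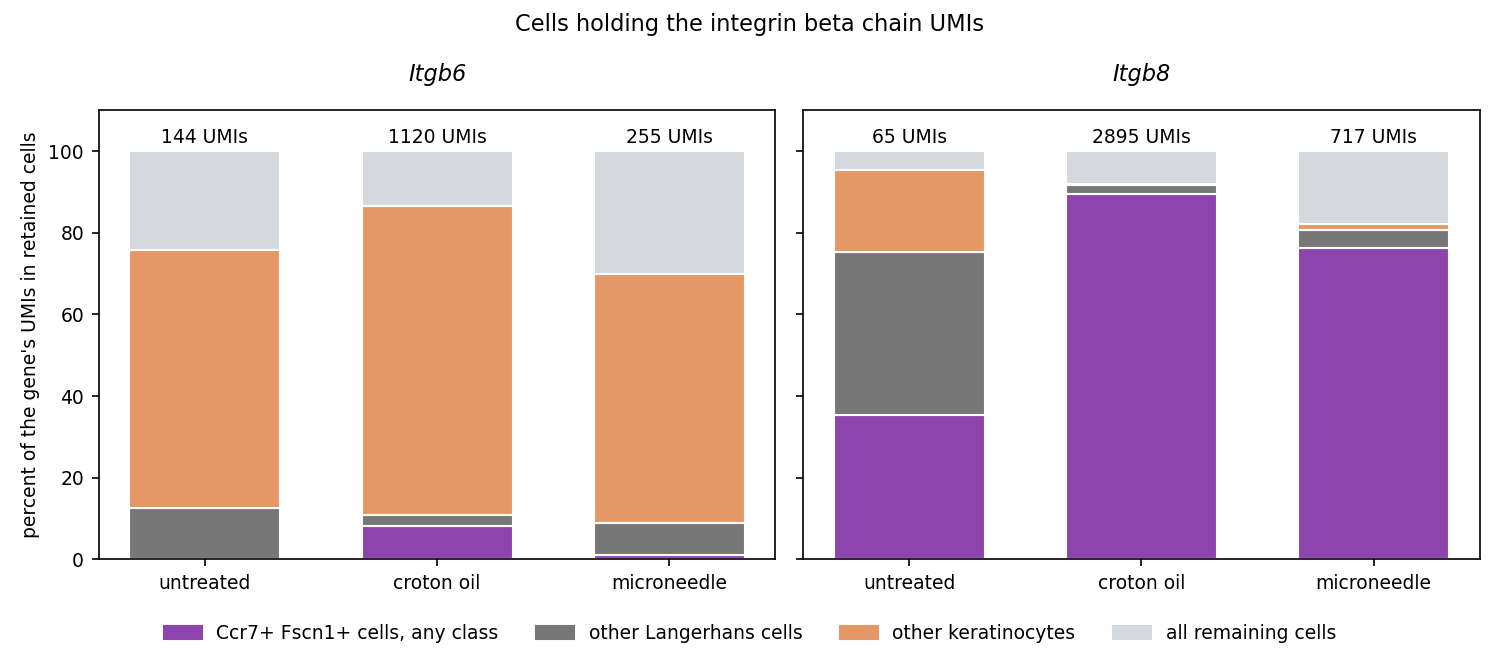
Share of all Itgb6 (left) and Itgb8 (right) UMIs of retained cells, in percent, held by Ccr7+ Fscn1+ cells of any class, other Langerhans cells, other keratinocytes and all remaining cells, in each of the 3 libraries; the total number of UMIs is above each bar. With croton oil Ccr7+ Fscn1+ cells hold 89.5% of the Itgb8 UMIs, and keratinocytes hold most of the Itgb6 UMIs in all 3 libraries.

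The promoters of the ligand gene and of the 2 beta chains are printed because the results on ligand and activation turn on these 3 genes: Tgfb1 was read in all classes, Itgb6 mainly in keratinocytes and Itgb8 mainly in Ccr7+ Fscn1+ cells of the treated libraries. Each is the 250 bases before the outermost annotated start in the GRCm39 reference with GENCODE vM39 annotation, on the gene's own strand, and none overlaps an annotated exon. Capitals mark a GC box (GGGCGG, on either strand). Tgfb1 lies at chr7:25386390-25404506 on the plus strand and its printed window at chr7:25386140-25386389. Itgb6 lies at chr2:60428636-60553035 on the minus strand, with the window at chr2:60553036-60553285, and Itgb8 at chr12:119121748-119202584 on the minus strand, with the window at chr12:119202585-119202834.
Tgfb1: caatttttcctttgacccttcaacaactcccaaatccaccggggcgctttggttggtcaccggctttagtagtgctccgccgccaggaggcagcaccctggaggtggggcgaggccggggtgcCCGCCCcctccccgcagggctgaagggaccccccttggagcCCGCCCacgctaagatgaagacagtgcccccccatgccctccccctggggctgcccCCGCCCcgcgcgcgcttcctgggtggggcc
Itgb6: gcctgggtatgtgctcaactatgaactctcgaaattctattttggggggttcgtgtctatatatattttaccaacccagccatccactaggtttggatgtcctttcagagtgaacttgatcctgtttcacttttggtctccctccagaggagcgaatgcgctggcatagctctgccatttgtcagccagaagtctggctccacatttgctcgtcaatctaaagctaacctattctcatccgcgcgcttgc
Itgb8: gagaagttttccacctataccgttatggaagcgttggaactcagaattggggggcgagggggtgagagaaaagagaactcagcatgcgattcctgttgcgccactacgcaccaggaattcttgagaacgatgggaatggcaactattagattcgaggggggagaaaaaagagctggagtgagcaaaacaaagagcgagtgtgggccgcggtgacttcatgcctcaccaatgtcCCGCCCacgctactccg
The Tgfb1 window is 69.6% G or C and holds 3 GC boxes, the Itgb8 window 52.8% with 1, and the Itgb6 window 47.6% with 0. A GC box was present in 29.9% of windows of the same length before 21770 protein-coding genes. The AP-1 motif TGANTCA (6.46% of windows), the CRE motif TGACGTCA (1.31%) and the SMAD palindrome GTCTAGAC (0.234%), searched on both strands, were in none of the 3 printed windows. These matches describe the letters only.

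The receptor gene Tgfbr1, the type I kinase, was highest in untreated Langerhans cells among the Langerhans and keratinocyte sums. It was at 247 CPM (244 to 250) untreated, 174 (171 to 176) with croton oil and 187 (185 to 190) with microneedles in Langerhans cells, log2 differences of -0.50 and -0.39. In keratinocytes it was at 65.9 CPM (58.6 to 73.9), 75.8 (70.1 to 81.8) and 102 (90.0 to 115). The distance between the 2 classes was thus narrower in the treated libraries, with log2 differences of keratinocytes from Langerhans cells of -1.83, -1.14 and -0.85. Langerhans cell RNA at the level of the markers would give 44.5, 15.2 and 29.7 CPM of Tgfbr1 in the keratinocytes, and keratinocytes under 0.5% MHC class II held 12.5, 59.2 and 94.7 CPM. In basal keratinocytes Tgfbr1 was at 101 CPM (89.1 to 115) untreated, 76.2 (70.2 to 82.5) with croton oil and 116 (101 to 132) with microneedles, log2 differences of -0.39 and 0.19, so the croton oil direction turned and the microneedle interval met the untreated one. These untreated basal cells were the ones with a median of 1.38% MHC class II UMIs. In basal keratinocytes under 0.5% MHC class II Tgfbr1 was at 54.3 CPM (31.1 to 88.2) untreated, 60.4 (53.4 to 67.9) with croton oil and 114 (92.5 to 138) with microneedles, where the microneedle interval was apart from the untreated one and the croton oil interval was not. Macrophages were at 312 CPM, neutrophils at 284 and 298 and T cells at 123.

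Tgfbr2, the type II kinase that binds the ligand first, was read at a near level in the Langerhans cells of all 3 libraries: 84.9 CPM (83.2 to 86.5), 75.4 (73.6 to 77.2) and 81.2 (79.4 to 82.9). In keratinocytes it was at 54.8 CPM (48.2 to 62.1) untreated, 107 (99.7 to 114) with croton oil and 129 (115 to 143) with microneedles. Over all keratinocytes the level was below that of Langerhans cells untreated and above it in both treated libraries. In untreated basal keratinocytes Tgfbr2 was at 81.9 CPM (70.9 to 94.2), an interval that met that of Langerhans cells. The log2 differences of keratinocytes from untreated were 0.90 and 1.16, and in basal keratinocytes they were 0.37 and 0.86. In basal keratinocytes with under 0.5% MHC class II UMIs Tgfbr2 was at 98.5 CPM (65.9 to 141), 117 (107 to 128) and 157 (132 to 186), where the untreated interval met both others and that of untreated Langerhans cells. T cells held 576 CPM, neutrophils 127 and 68.3 and macrophages 60.1.

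The receptor-activated signal carrier Smad3 was low in Langerhans cells. It stood there at 3.02 CPM (2.72 to 3.35) untreated, 14.1 (13.3 to 14.9) with croton oil and 13.5 (12.8 to 14.2) with microneedles, under the 20 CPM limit in all 3, with log2 differences of 1.25 and 1.20. The treated libraries were apart from the untreated one by more than counting error. T cells held 432 CPM of Smad3, and T cell RNA at the level of T cell markers would give 3.94 of the 14.1 CPM in croton oil Langerhans cells. Of the 8 T cell markers 6 formed the T cell gate, so selection raises their T cell level and can make this value too low. Keratinocytes held 15.4, 19.4 and 33.1 CPM, macrophages 49.1, and neutrophils 47.0 and 121.

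Smad7, the inhibitory SMAD that removes active receptors, was higher in Langerhans cells than in keratinocytes in each library. Langerhans cells held 197 CPM untreated, 217 with croton oil and 159 with microneedles, and keratinocytes 75.3, 62.3 and 76.1. The log2 differences between the 2 classes were -1.33, -1.72 and -1.01. T cells held 630 CPM, neutrophils 155 and 158, and macrophages 115.

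Of the SMAD-binding co-repressor genes, Ski was higher in both treated libraries in Langerhans cells, and Skil was lower with croton oil. Ski was at 33.8 CPM, 49.5 and 47.4 in Langerhans cells (log2 differences 0.49 and 0.43) and at 56.6, 56.9 and 78.4 in keratinocytes. Skil was at 254 CPM, 182 and 243 in Langerhans cells (log2 differences -0.47 and -0.07) and at 111, 68.4 and 99.2 in keratinocytes. All of these differences were under 2-fold. Neutrophils were highest for Ski, at 255 and 218 CPM, and macrophages held 108 CPM of Ski and 260 of Skil.

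Counted against the rest of the genome, the Langerhans cells gave no member past the fold. With croton oil 0 of the 7 members at 20 CPM passed, where 11.2% of all genes compared did, and with microneedles 0 of 7, where 5.60% did. The median log2 difference of those 7 members was 0.14 with croton oil, against -0.03 over all genes, and -0.06 with microneedles, against 0.02. In keratinocytes 1 of 8 members passed with croton oil (Itgb6; background 24.2%), and 2 of 9 with microneedles (Itgb6 and Tgfbr2; background 9.24%). Tgfbr2 did not pass with TMM scaling (0.99), a 4% MHC class II gate (0.98) or in basal keratinocytes (0.86). The croton oil share of members was below the background share, so the count itself says nothing particular of the members there. Basal keratinocytes gave 1 of 9 members with croton oil (background 24.6%) and 1 of 9 with microneedles (background 8.24%), Itgb6 in both.

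The counts among croton oil keratinocytes moved with the choice of cells. Among those under 0.5% MHC class II, 6 of 9 members were higher with croton oil than untreated (Tgfb1, Itgb6, Tgfbr1, Tgfbr2, Smad3 and Smad7) and 0 lower, where 37.5% of all genes passed, 20.1% higher and 17.4% lower. That subset was mostly suprabasal untreated (59 of 74 cells) and mostly basal with croton oil (114 of 126). Between untreated suprabasal and basal keratinocytes the same 6 genes passed the fold, all lower in the suprabasal cells, of 9 members (background 36.2%, with 13.3% higher and 22.9% lower). Layer and treatment cannot be told apart in the first of these counts. Untreated basal cells held a median of 1.38% MHC class II UMIs, against 0.0521% in untreated suprabasal cells. In the second count layer and Langerhans cell RNA therefore cannot be told apart.

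Between keratinocytes and Langerhans cells more members differed, and the background was also higher. Untreated, 5 of 8 members passed the fold (background 35.8%): Itgb6 was higher in keratinocytes, and Tgfb1, Tgfbr1, Smad7 and Skil were lower. With croton oil the same 5 genes passed in the same directions, of 8 (background 41.3%). With microneedles 5 of 9 passed (background 36.6%), Itgb6 and Smad3 higher and Tgfb1, Smad7 and Skil lower. Some of these calls ended under another setting: Smad3 for microneedles with TMM scaling (0.76), Smad7 for microneedles with a 4% MHC class II gate (-0.92) or without mitochondrial and ribosomal protein genes in the total (-0.89), Tgfbr1 for croton oil without those genes (-0.98), and Skil untreated with the 4% gate (-0.92). Untreated Itgb6 stood at 20.3 CPM, just above the 20 CPM limit, and was not counted with TMM scaling, with cells of more than one gate kept, with a 50 CPM minimum or in keratinocytes under 0.5% MHC class II, although its log2 difference there was between 2.02 and 2.29. Against Langerhans cells, keratinocytes under 0.5% MHC class II gave 5 of 7 members untreated (background 50.7%), all lower, and 5 of 9 with croton oil (background 45.2%). In untreated basal keratinocytes alone, Tgfb1 differed by -0.88, Smad7 by -0.68 and Skil by -0.93, and in microneedle basal keratinocytes Smad7 by -0.90, all short of the fold. Macrophages against Langerhans cells of the microneedle library gave 2 of 8 members (background 36.3%), both higher in macrophages: Smad3 (log2 difference 1.55) and Ski (1.11).

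Beyond Itgb8, Ccr7+ Fscn1+ cells differed from the other Langerhans cells in the ligand and the type II receptor. Tgfb1 was at 68.8 CPM (64.2 to 73.6) against 170 with croton oil, and at 64.6 against 164 with microneedles. Tgfbr2 was at 19.7 CPM (17.2 to 22.3) against 76.9, and at 17.6 against 81.4. Ski was at 18.6 CPM against 50.2 and at 19.5 against 47.6. Each of these 3 genes was lower in both libraries, with log2 differences of -1.25 and -1.28 for Tgfb1, -1.73 and -1.93 for Tgfbr2, and -1.23 and -1.10 for Ski. With a 4% MHC class II gate the microneedle value of Ski was -0.97.

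The other members were not past the fold in these cells. Itgav was at 238 CPM against 163 with croton oil and at 192 against 104 with microneedles. Tgfbr1 was at 137 against 174 and 181 against 188, Smad7 at 128 against 219 and 103 against 159, and Skil at 252 against 181 and 393 against 242. Smad3 lay on opposite sides in the 2 libraries, at 9.46 CPM (7.81 to 11.4) with croton oil, below the other Langerhans cells (log2 difference -0.39), and at 26.2 against 13.4 with microneedles (0.77). Without the top 5% of cells by UMIs the microneedle difference of Smad3 was -0.01, and inside the Langerhans gate the croton oil difference was 0.12. In counts, 4 of 8 members passed the fold with croton oil (background 19.5%) and 4 of 9 with microneedles (background 22.9%), in each 1 higher and 3 lower. Among croton oil cells inside the Langerhans gate 2 of 8 passed (background 8.12%), Itgb8 higher (background 4.75%) and Tgfbr2 lower (background 3.37%), and Tgfb1 differed there by -0.54 and Ski by -0.58.

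**Figure D4:**
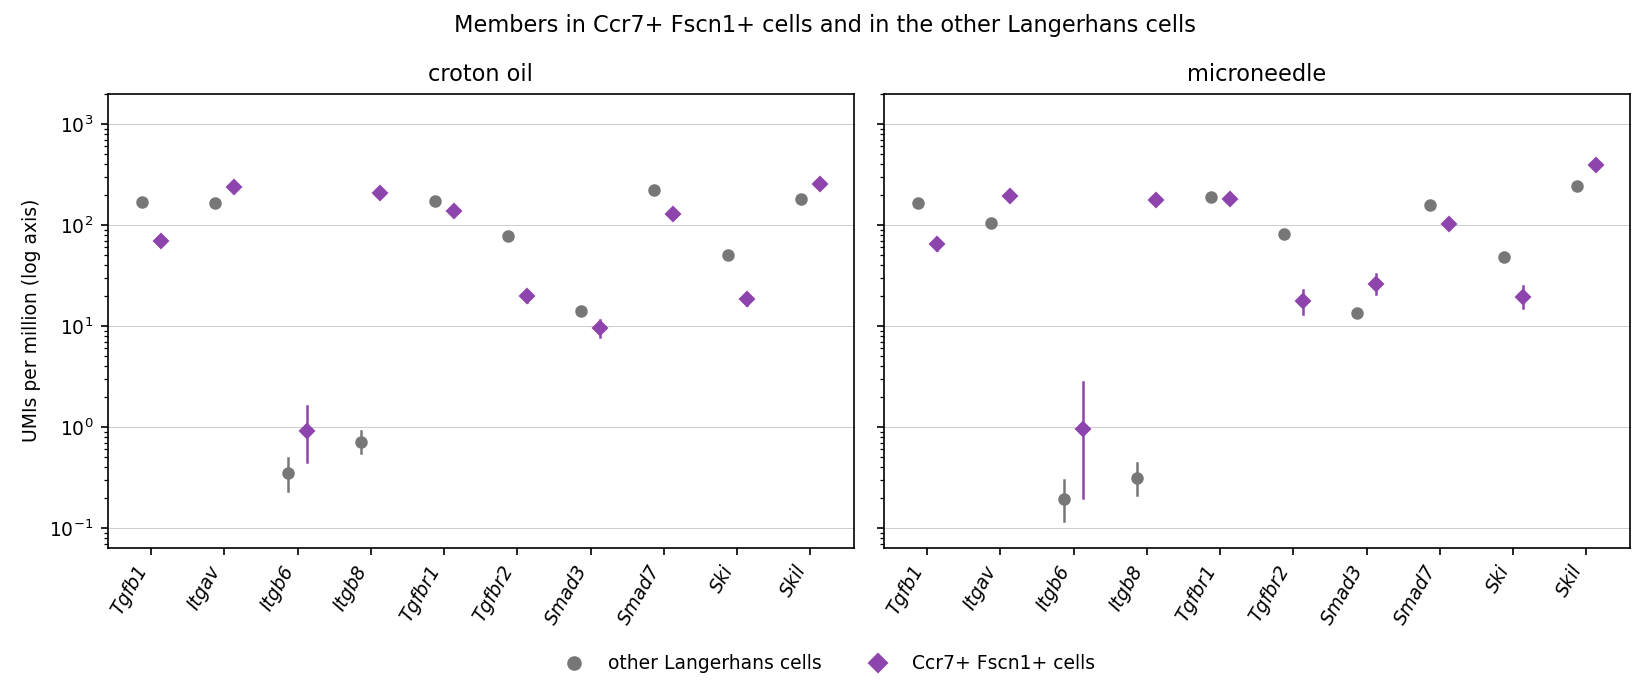
Level of the 10 genes (vertical log axis, CPM) in Ccr7+ Fscn1+ cells (purple diamonds) and in the other Langerhans cells (grey circles) of the croton oil (left) and microneedle (right) libraries, with exact 95% Poisson intervals. Itgb8 is the gene with the widest gap, 205 against 0.716 and 175 against 0.309, while Tgfb1, Tgfbr2 and Ski are lower in Ccr7+ Fscn1+ cells in both panels.

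Among 63 other genes of the pathway, those that passed the fold in Langerhans cells were higher after treatment. With croton oil 5 of 33 genes at 20 CPM were higher and 0 lower, where 5.64% and 5.56% of all genes were. Pmepa1, a SMAD-binding feedback inhibitor induced by TGF-beta, was at 2.27 CPM untreated, 89.6 with croton oil and 53.5 with microneedles. Tgfbi, a secreted matrix protein named for its induction by TGF-beta, was at 3.09, 150 and 178 CPM. Fkbp1a, which binds the type I receptor, was at 115, 325 and 242 CPM. The other 2 that passed with croton oil were Cdkn1a, a cell cycle inhibitor, at 127 CPM against 330, and Zeb2, a transcriptional repressor, at 2.18 against 41.5. With microneedles Pmepa1, Tgfbi and Fkbp1a passed, 3 of 32, and 0 were lower (background 3.90% and 1.70%). The median log2 difference of the list was -0.19 with croton oil and -0.11 with microneedles, against -0.03 and 0.02 over all genes, so most of the list did not move with these genes.

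RNA of other cells was set beside these values. Macrophage RNA at the level of the genes of the macrophage gate would give 8.20 CPM of Tgfbi and 21.3 of Zeb2 in microneedle Langerhans cells, which held 178 and 17.1. Macrophages were selected on these genes, and Langerhans cells meeting that gate were left out. The gate thus bears on both sides of these estimates and can make them too low. Keratinocyte RNA would give 2.15 of the 3.09 CPM of Tgfbi in untreated Langerhans cells and 2.61 of the 150 CPM with croton oil. For Pmepa1 it would give 0.765 CPM of 89.6 with croton oil. Macrophages of the croton oil library were too few (7 cells) for such a value. Of the macrophage and monocyte, T cell, neutrophil and keratinocyte marker lists, 2 were higher in the Langerhans cells of both treated libraries. The 15 macrophage and monocyte genes summed to 892 CPM untreated, 2990 with croton oil and 1514 with microneedles, with 5, 7 and 5 of them at 20 CPM. The 8 T cell genes summed to 5.24, 82.8 and 20.2, with 0, 2 and 0 at 20 CPM. The genes of the macrophage list did not move together: C1qa was at 59.7, 1460 and 484 CPM (untreated, croton oil, microneedle), while Lyz2, a gene of the macrophage gate, was lower with croton oil (1.90 CPM) and microneedles (6.39 CPM) than untreated. No gene of these 2 lists was at 0 in Langerhans cells. The 7 neutrophil genes were lower in both treated libraries, at 161, 109 and 126 CPM, and the 10 keratinocyte genes were at 136, 148 and 101. The part of other cells' RNA in these levels was not tested.

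In keratinocytes Pmepa1 was also higher in both treated libraries, at 13.4 CPM untreated, 102 with croton oil and 76.9 with microneedles. With croton oil 3 of 37 genes of the pathway list were higher and 3 lower (background 10.3% and 13.9%). The others higher were Thbs1, whose product thrombospondin-1 can activate latent TGF-beta, at 59.7 against 128 CPM, and Fkbp1a at 51.9 against 118. The 3 lower were Itgb5, another partner of alpha-v, at 69.3 against 19.4, Nrros, which anchors latent TGF-beta on myeloid cells, at 54.8 against 18.0, and Runx3, a transcription factor, at 121 against 45.6. Nrros and Runx3 were at 284 and 442 CPM in untreated Langerhans cells, and at 1.13 and 3.40 in untreated keratinocytes under 0.5% MHC class II. With microneedles Pmepa1 was higher and Itgb5 and Cdkn2b lower, of 38 (background 4.02% and 5.22%), with Itgb5 at 22.7 CPM and Cdkn2b, a cell cycle inhibitor gene, at 44.1 against 16.1. In basal keratinocytes under 0.5% MHC class II, Pmepa1 was at 40.7 CPM (21.1 to 71.2) untreated, 89.8 (81.3 to 98.9) with croton oil and 85.4 (67.3 to 107) with microneedles. The untreated and microneedle intervals met there.

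Between classes the list divided in both directions. Of 41 genes at 20 CPM untreated, 12 were higher and 11 lower in keratinocytes than in Langerhans cells (background 19.0% and 16.8%), with 10 and 13 of 39 for croton oil (background 20.9% and 20.4%) and 10 and 11 of 40 for microneedles (background 19.6% and 17.0%). Macrophages against Langerhans cells gave 9 higher and 5 lower of 37 (background 18.0% and 18.3%). Those higher included genes of ligand supply and activation: Inhba, an activin subunit, at 320 CPM against 2.20, Thbs1 at 889 against 3.29, and Furin, the protease that cuts the TGF-beta precursor, at 364 against 80.3. Tgfbi was at 1146 CPM in macrophages against 178. The lower genes were Acvr2a, Acvr2b, Smad4, Runx3 and Itgae, with Runx3 at 117 against 469.

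In Ccr7+ Fscn1+ cells, 5 of 34 genes of the list were higher and 7 lower with croton oil (background 8.30% and 11.2%), and 6 and 5 of 34 with microneedles (background 10.3% and 12.6%). A second ligand gene, Tgfb2, was at 30.0 CPM against 0.808 with croton oil and 35.5 against 1.43 with microneedles. Smurf1, a ubiquitin ligase that targets receptors and SMADs, was at 188 against 67.0 and at 144 against 59.8. The targets divided: Id2, an inhibitor of helix-loop-helix factors, was higher (1454 against 617 CPM, and 1107 against 457), and its relative Id1 lower (30.9 against 123, and 34.5 against 79.4). Tgfbi was lower as well, at 25.1 against 153 and 24.0 against 178, and so was Runx3, at 156 against 388 and 165 against 471.

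Over the 10 sums of a class in a library with at least 50 cells, among 10520 genes, the patterns most like that of Tgfb1 by Pearson's r of log2(CPM + 5) were those of Dock10 (0.970), Evi2a (0.969) and Fyb (0.961). For Itgb8 they were Pcif1 (0.917), Rab35 (0.899) and Ppp4c (0.891), but all 10 Itgb8 sums were under 20 CPM and the highest, 13.6 and 9.75 CPM in croton oil neutrophils and T cells, came from 1 cell each. Sums of a class share their cell type and sums of a library their preparation, and the Ccr7+ Fscn1+ cells were not among the sums, so these values are descriptions of likeness only.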

How the data were processed

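The deposited matrices hold whole-number UMI counts per gene and cell that the authors made with Cell Ranger 8.0 on GRCm39, per the submitters' processing notes, and the file headers name Cell Ranger 8.0.0. Barcodes had been called as cells before deposit. From these counts, cells with under 500 genes or over 10% mitochondrial UMIs were left out, classes were gated on marker genes, and UMIs were summed over the cells of a class in a library and divided by the class total (CPM). The macrophage gate asked for 0.2% of UMIs from macrophage genes, the neutrophil gate for 1% and the T cell gate for 3 UMIs of T cell genes with under 2% MHC class II UMIs. Classes under 50 cells were not compared. Log2 differences used CPM + 5. With 1 library a group no model or test was run, and intervals were computed with scipy 1.17.1. Counts made with a 3' kit do not scale with gene length, and levels were not compared between genes. Python 3.11.15 and edgeR 4.0.16 (R 4.3.3; TMM factors as an alternative only) were used. In data simulated from the real sums, 200 of 200 genes changed 3-fold were recovered in each of 4 comparisons, with 0 unchanged genes called. The simulated sums held no variation between animals or libraries. A 3-fold change read with a 2-fold limit is then recovered almost by design, so this checks the computation only. The text names all 10 members, genes of the pathway list past the fold, and the 3 genes most like Tgfb1 and Itgb8. The members, gates and gene lists were chosen with earlier results of these data known.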

Additional observations from a re-analysis of the deposited data

Results flagged for a closer look

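For 2 receptor genes the treated libraries lay on opposite sides of the untreated one in Langerhans cells and in keratinocytes, with counting intervals apart in both classes. The difference between the classes was not tested, since each group is 1 library. Tgfbr2 with croton oil differed from untreated by -0.16 (log2) in Langerhans cells and by 0.90 in keratinocytes. With microneedles Tgfbr2 differed by -0.06 in Langerhans cells and by 1.16 in keratinocytes. Tgfbr1 with microneedles differed by -0.39 in Langerhans cells and by 0.59 in keratinocytes. In each case the keratinocytes of the treated library held a larger share of basal cells than the untreated ones. In basal keratinocytes alone Tgfbr1 with microneedles differed by 0.19, with intervals that met, and the untreated basal cells had a median of 1.38% MHC class II UMIs against 0.0659% with microneedles. Among basal keratinocytes under 0.5% MHC class II, Tgfbr1 was at 54.3 CPM (31.1 to 88.2) untreated and 114 (92.5 to 138) with microneedles, with intervals apart. Tgfbr2 differed by 0.37 with croton oil and by 0.86 with microneedles in basal keratinocytes, with intervals apart, but among those under 0.5% MHC class II the untreated interval (98.5 CPM, 65.9 to 141) from 15 cells met both treated ones (117 and 157 CPM), which were higher.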

How the results depend on the processing

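No paired analysis was possible because each group is 1 library with no replicate. Of 1450 log2 differences of members, 1271 stayed within the counting interval of the main value and 179 moved. The settings with no filter on low genes and with a 50 CPM minimum cannot change a log2 difference. They gave 100 each of the 1271, so these say nothing of stability. No log2 difference past the fold in the main comparison changed sign, but 38 others did, 2 of them to over 2-fold. With croton oil in keratinocytes under 0.5% MHC class II, Tgfb1 went from -0.02 to 1.99 and Smad7 from -0.25 to 1.33. Of 580 counts of genes or members past the fold, 546 stayed within 1.5 times and 34 moved; the latter follow, and their causes were not tested unless the setting itself compares fewer genes or cells. With no filter on low genes, members higher in Langerhans cells were 1 with croton oil and 1 with microneedles (main 0), and 2 in untreated keratinocytes against Langerhans cells (main 1). With a 50 CPM minimum, which compares fewer genes, lower genes were 233 and 65 in Langerhans cells (croton oil, microneedles) and 702 in croton oil keratinocytes, microneedle keratinocytes had 163 higher and 251 lower, keratinocytes exceeded Langerhans cells in 931, 999 and 927 genes (untreated, croton oil, microneedle) with 0 members untreated and 1 with microneedles, and macrophages had 889 lower genes and 1 higher member. With TMM scaling, higher members in keratinocytes were 2 (croton oil) and 1 (microneedles, with 194 genes), and against Langerhans cells 0 untreated and 1 with microneedles. A 4% MHC class II gate left 1 higher member in microneedle keratinocytes, a 2% keratin gate 3 with croton oil, and keeping cells of more than one gate 0 in untreated keratinocytes against Langerhans cells. Under settings added after seeing the data, keratinocytes under 0.5% MHC class II gave 1489 higher genes and 6 higher members with croton oil, and 2197 lower genes and 0 higher members against untreated Langerhans cells. Basal keratinocytes gave 1 higher member with microneedles, and against untreated Langerhans cells 880 lower genes, 2 higher and 1 lower member. Ccr7+ Fscn1+ cells inside the Langerhans gate gave 314 higher and 223 lower genes and 1 lower member with croton oil. Thinning to 2000 UMIs moved 49 of 90 shares of cells, and no thinning 85 of 90. The microneedle keratinocyte comparisons were not run under the 2% keratin gate (48 cells) or under 0.5% MHC class II (46 cells). Keratinocytes numbered 159, 182 and 78 cells, which limits their precision, and 85, 56 and 32 of them (untreated, croton oil, microneedle) held at least 0.5% MHC class II UMIs.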
